A study of Mus musculus with 17 samples.

Results

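The genes described here are the replication-dependent core histone genes of the mouse, chosen as the protein-coding genes whose symbol is H2ac, H2bc, H3c or H4c followed by a number. There were 57 such genes among the 21887 protein-coding genes of the gene table, with 17 in class H2ac (encoding H2A), 16 in H2bc (H2B), 12 in H3c (H3) and 12 in H4c (H4). Chromatin-bound STAG2, LIN54 and p130 had been mapped by CUT&RUN, in which an antibody tethers a nuclease to a protein and the DNA fragments released around it are sequenced. The cells were urothelium, the lining of the bladder, peeled from Stag2-KO and Stag2-WT mice 1 week after TMX induction, with about 500000 cells per condition. There were 2 STAG2-KO and 2 STAG2-WT libraries, 2 LIN54-KO and 3 LIN54-WT libraries, and 3 p130-KO and 3 p130-WT libraries, and KO and WT name the state of Stag2 throughout. TMX was given in all groups, including WT. The driver of recombination, the ages of the mice and the number of animals behind a replicate are not given in the sources used here, although the labels call the replicates biological. By the labels, batch 1 held every STAG2 and LIN54 library, batch 2 held p130-WT replicate 1 alone, and batch 3 held the 5 p130 libraries that remain.

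Replication-dependent histone genes are short, intronless genes that lie in clusters and are switched on together when DNA is copied, so that new chromatin can be packed. Their mRNAs end in a stem-loop in place of a poly(A) tail, and their promoters are known for CCAAT boxes, TATA boxes and, at H2B genes, an octamer that binds OCT1. LIN54 is the DNA-binding subunit of MuvB and p130 (encoded by Rbl2) the pocket protein that joins it with E2F in DREAM, the repressor of cell cycle genes in resting cells. STAG2 belongs to cohesin, a ring-shaped complex that ties DNA into loops and keeps sister chromatids together.

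A gene end was called occupied when the summit of a deposited peak lay within 500 bp of either end of the gene. The lists run to p values of 0.05, so many of their peaks are weak, and most counts are also given for peaks with q up to 0.01. Neighbouring genes can share a summit, so the range of distinct summits per library, each counted once, is also given for the deposited peaks. The 57 genes formed 3 clusters, taken as runs with gaps of at most 500 kb (mm10 coordinates). Cluster 1 (chr3:96219885-96270192) held 10 genes, cluster 2 (chr13:21715711-22043658) held 21, and cluster 3 (chr13:23531044-23934913) held 26. Annotated gene lengths ran from 375 to 37455 bp (median 487 bp), and the ends of the longest, H2bc6, H2bc22 and H2bc4, lie far apart. The last 2 genes of cluster 3, H2ac1 and H2bc1, encode histones of the testis and lie apart from the rest.

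The lists held 286079 to 539191 peaks, of which 316 to 25859 had q up to 0.01. STAG2-KO replicate 1, with 1239 such peaks, stood below the other STAG2 libraries (6777 to 25859). All 550 best summits of the histone genes gave a whole fragment count when it was recovered from fold and p, and the counts ran from 4 to 107 with a median of 10 fragments. Where no peak was listed, binding was not detectable at this depth, which does not show that it was absent. In bulk chromatin, a protein that leaves some cells and one that thins out in all cells cannot be told apart. Of 18 urothelial marker genes, 55.9% had a peak on average over the 15 libraries and 11.5% had one at q 0.01. These shares were 48.9% and 5.56% for 6 fibroblast markers, 40.0% and 2.67% for 5 smooth muscle markers, 33.3% and 3.33% for 6 immune markers, and 33.3% and 0% for 5 endothelial markers, beside 44.0% and 9.42% of all genes. Stag2 itself had a STAG2 peak in 1 of 2 KO and 1 of 2 WT libraries, and a peak at an end of the gene is no measure of its deletion. In STAG2-KO libraries the gene of the antibody's target was knocked out. Whether the peaks listed in these libraries reflect STAG2 itself was not tested, and the pMNase control was not used.

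The promoters below are those of the best ranked gene of each class among the genes with a promoter in the table, and they carry the sites to which the strongest peaks are referred later. H3c1, the best ranked H3 gene of all, has none there, so H3c8 is shown. Each line gives the 250 bases before the transcription start of the RefSeq annotation (GRCm38.p6, the assembly of mm10), 5′ to 3′ on the strand of the gene. Capitals mark CCAAT boxes (CCAAT or ATTGG), the octamer (ATTTGCAT), the CHR, a cell cycle homology element (TTTGAA or TTCAAA), and E2F words (TTTCCCGC or TTTCGCGC here).
H4c1, chr13:23761250-23761499, minus strand: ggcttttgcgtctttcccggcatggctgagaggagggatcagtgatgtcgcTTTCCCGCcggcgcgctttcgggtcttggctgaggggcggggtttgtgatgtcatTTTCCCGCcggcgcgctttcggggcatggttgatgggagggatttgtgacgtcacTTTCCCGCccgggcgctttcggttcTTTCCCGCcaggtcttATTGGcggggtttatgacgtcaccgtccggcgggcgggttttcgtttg
H2bc14, chr13:21721794-21722043, plus strand: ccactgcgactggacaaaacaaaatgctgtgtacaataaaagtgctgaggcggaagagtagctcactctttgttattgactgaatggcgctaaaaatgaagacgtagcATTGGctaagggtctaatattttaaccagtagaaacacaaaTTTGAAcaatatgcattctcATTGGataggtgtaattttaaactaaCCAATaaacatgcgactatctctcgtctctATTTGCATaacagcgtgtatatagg
H2ac11, chr13:22042950-22043199, minus strand: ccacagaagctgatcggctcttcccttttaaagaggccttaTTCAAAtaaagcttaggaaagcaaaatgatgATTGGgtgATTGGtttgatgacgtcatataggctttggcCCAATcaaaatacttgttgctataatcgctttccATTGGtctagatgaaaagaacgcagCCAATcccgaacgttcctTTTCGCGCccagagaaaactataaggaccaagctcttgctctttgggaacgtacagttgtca
H3c8, chr13:23535168-23535417, plus strand: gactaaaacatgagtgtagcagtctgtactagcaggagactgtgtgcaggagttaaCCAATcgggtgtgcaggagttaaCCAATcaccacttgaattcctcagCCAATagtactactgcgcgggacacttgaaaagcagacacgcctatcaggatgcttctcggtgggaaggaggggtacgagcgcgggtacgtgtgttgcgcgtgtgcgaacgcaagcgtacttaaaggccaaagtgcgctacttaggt
The H4c1 promoter holds 4 copies of the same E2F word, the first bases of which lie 199, 144, 89 and 64 bp before the start. H2bc14 has 3 CCAAT boxes, a CHR and an octamer, whereas H2ac11 has 5 CCAAT boxes, a CHR and 1 E2F word in this stretch. H3c8 has 3 CCAAT boxes and no other word searched in this stretch.

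Histone genes carried peaks of all 3 antibodies more often than the genes at large. In the LIN54 lists, 44 and 46 of 57 genes had a peak in LIN54-KO replicates 1 and 2, beside 47.5% and 49.6% of all genes. LIN54-WT replicates 1, 2 and 3 had 39, 37 and 41, beside 47.2%, 49.4% and 45.3% of all genes. Both KO libraries thus lay above all 3 WT libraries. STAG2 peaks marked 28 and 42 of the 57 genes in STAG2-KO replicates 1 and 2 (38.7% and 46.2% of all genes). They marked 38 and 41 in STAG2-WT replicates 1 and 2 (50.7% and 53.0% of all genes). The KO values fell on both sides of the WT values. For p130, 34, 27 and 28 genes had a peak in p130-KO replicates 1, 2 and 3 (34.4%, 35.7% and 33.4% of all genes). In p130-WT replicates 1, 2 and 3 there were 29, 40 and 36 (44.9%, 46.6% and 38.0% of all genes), so that the groups overlapped. Over the 15 libraries the share among histone genes was 1.13 to 1.73 times that among all genes, with a median of 1.47. The windows searched were shorter for the histone genes, with a median of 1487 bp per histone gene and 2002 bp over all genes.

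At q 0.01 the shares of histone genes and of all genes were both lower, and the ratio of the shares was mostly higher. LIN54 then marked 32 and 32 histone genes in LIN54-KO replicates 1 and 2 (21.6% and 20.0% of all genes) and 21, 22 and 13 in LIN54-WT replicates 1, 2 and 3 (10.4%, 13.1% and 6.77%). STAG2 marked 1 and 13 in STAG2-KO replicates 1 and 2 (2.36% and 9.93% of all genes) and 36 and 22 in STAG2-WT replicates 1 and 2 (29.3% and 17.4%). p130 marked 10, 4 and 2 in p130-KO replicates 1, 2 and 3 (2.12%, 1.07% and 1.11%) and 7, 10 and 7 in p130-WT replicates 1, 2 and 3 (1.20%, 3.23% and 1.57%). The histone share exceeded that of all genes in 14 of 15 libraries, the exception being STAG2-KO replicate 1, and the ratio ranged from 0.743 to 10.2 with a median of 3.17. The genes with a deposited peak rested on 21 to 35 distinct summits in each library. Across libraries, the 428 best peaks merged into 47 regions, of which 30 were covered by all 3 antibodies and 4 were found in every library. At q 0.01 the 163 best peaks merged into 30 regions, 10 of them with all 3 antibodies.

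**Figure D1:**
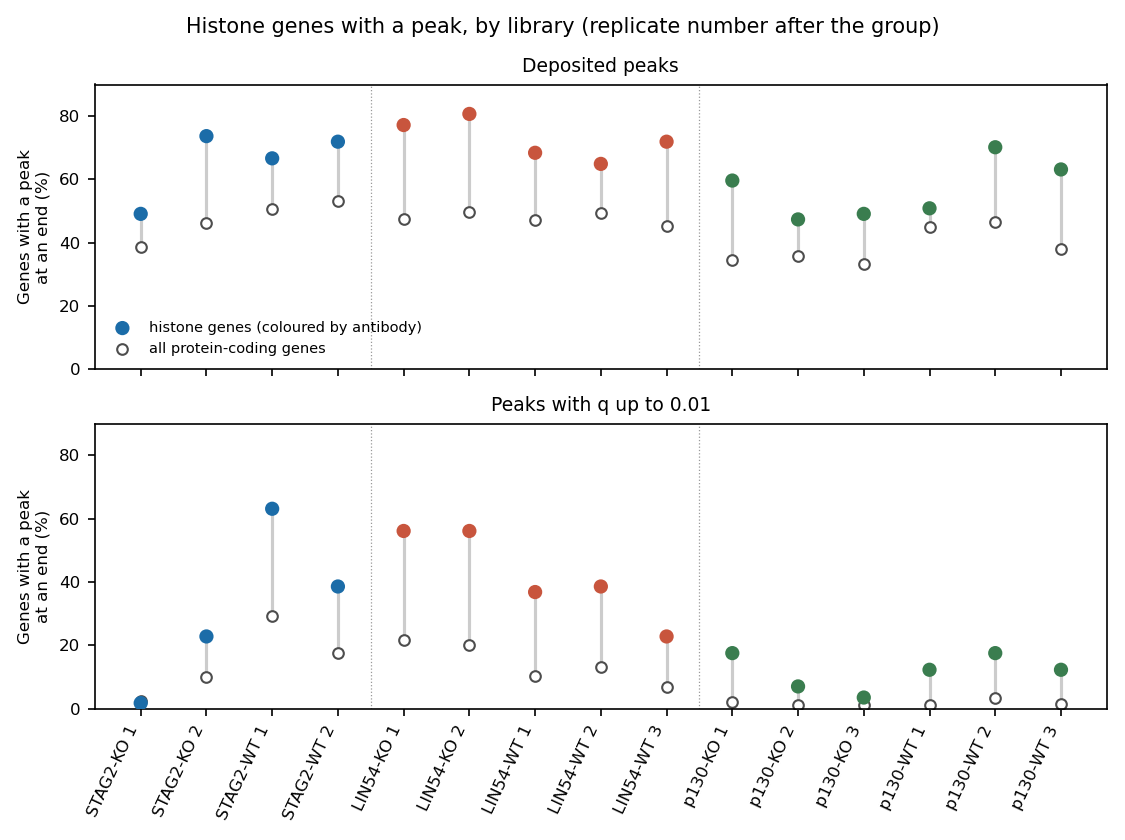
Percent of the 57 histone genes (filled points, coloured by antibody) and of all protein-coding genes (open points) with a peak summit within 500 bp of a gene end, by library, for the deposited peaks above and peaks with q up to 0.01 below. The filled point lies above the open one in all 15 libraries for deposited peaks and in 14 of 15 at q 0.01.

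Genes other than histones in the same stretches of chromosome were marked less. Among 9 such genes lying within the clusters (Zfp184, Pom121l2, Prss16, Hfe, Trim38 and Slc17a1 to Slc17a4), a mean of 34.1% had a peak, and 1.48% had one at q 0.01. The histone genes, with means of 64.3% and 27.1%, were above them in 15 of 15 libraries at either threshold. The 6 linker histone genes inside the clusters, which encode H1, had means of 65.6% and 20.0%. At q 0.01, 33 of 42 summits in cluster 1 lay at histone gene ends, whose windows cover 25.1% of that cluster. In cluster 2 it was 45 of 66 summits (windows 8.06%), with 8 more at tRNA genes, and in cluster 3 it was 91 of 122 (windows 8.87%).

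H2B genes were marked most often. Averaged over the 15 libraries, 74.6% of H2bc genes had a peak, against 62.8% of H3c, 60.0% of H4c and 58.8% of H2ac genes. The H2bc share was above the H3c share in 15 of 15 libraries, and above the H2ac and the H4c share in 14 of 15 each. At q 0.01 the means were 36.7% for H2bc, 25.1% for H2ac, 22.2% for H3c and 22.2% for H4c, and H2bc was then above H2ac in 13 libraries and tied in 2, above H3c in 10 and below it in 3, and above H4c in 12 and below it in 3. With p130 in KO the H3c mean at q 0.01 (13.9%) was above the H2bc mean (10.4%). The other 3 classes changed order from library to library: H3c was above H4c in 6, below it in 4 and tied in 5 libraries. All these classes share their libraries, and in part their summits. The annotated lengths also differ: H2bc21 (2667 bp), H2bc23 (3788), H2bc4 (8282), H2bc22 (14079) and H2bc6 (37455) are long. No gene of another class exceeds 911 bp. The windows at the ends of these long genes do not overlap, so more sequence was searched there. The part of this in the order of the classes was not tested. Without 5 genes of cluster 2 that had no peak in any library (2 H2ac, 1 H2bc and 2 H4c genes, set aside after their values were seen), the means were 79.6% for H2bc, 72.0% for H4c, 66.7% for H2ac and 62.8% for H3c. H2bc was then above H4c in 8 libraries, below it in 4 and tied in 3.

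By cluster, the means were 71.8% in cluster 3, 64.7% in cluster 1 and 54.9% in cluster 2, and cluster 3 was above cluster 2 in 14 of 15 libraries. This order rests on the 5 genes with no peak, since the other 16 genes of cluster 2 had a mean of 72.1%, and cluster 3 was above them in 7 and below them in 8 libraries. At q 0.01 the means were 29.2% in cluster 3, 28.7% in cluster 1 and 23.8% in cluster 2 (31.2% over its other 16 genes). Cluster 3 was then above cluster 2 in 10 libraries, below it in 4 and tied in 1, and with p130 in WT cluster 2 (20.6%) was above cluster 3 (10.3%). Cluster 1, on chromosome 3, differed most between antibodies, although p130 shared no batch with the others, so antibody and batch cannot be told apart. Of its 10 genes, 8 and 8 had a LIN54 peak in LIN54-KO replicates 1 and 2 and 9, 9 and 8 in LIN54-WT replicates 1, 2 and 3. At q 0.01 these counts were 6 and 6 in LIN54-KO and 6, 3 and 1 in LIN54-WT. With p130, 4, 2 and 2 of them had a peak in p130-KO replicates 1, 2 and 3, against 5, 7 and 6 in p130-WT replicates 1, 2 and 3. The p130-KO libraries all lay below the p130-WT libraries there, also when WT replicate 1 of batch 2 is set aside, and all genes had the same order in these libraries. At q 0.01 no gene of cluster 1 had a p130 peak in 5 of the 6 libraries, and p130-WT replicate 2 had 3. H4 genes of cluster 2 had a mean of 29.3% over 5 genes, against 80.0% over the 6 H4 genes of cluster 3. Of these 5, H4c17 and H4c18 had no peak in any library, and the other 3 had a mean of 48.9%. At q 0.01 the means were 1.33% over the 5 genes (2.22% over the 3) and 32.2% in cluster 3.

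**Figure D2:**
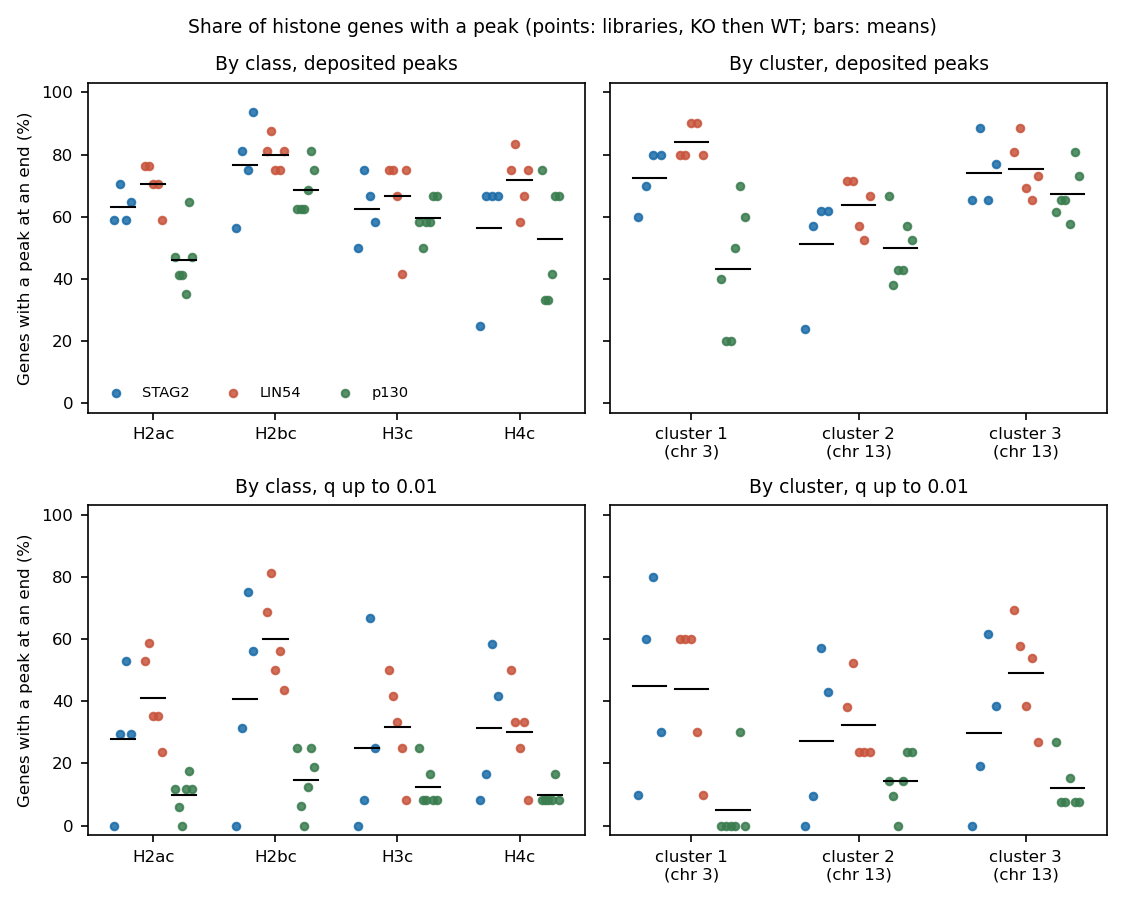
Percent of histone genes with a peak at a gene end by class (left) and by cluster (right), for deposited peaks (top) and peaks with q up to 0.01 (bottom). Each point is a library (within an antibody KO points stand left of WT points) and bars are means over the libraries of an antibody. H2bc has the highest mean with each antibody for deposited peaks, and cluster 1 the lowest with p130.

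The strongest signal at any histone gene lay between H4c1 and H3c1, an H4 and an H3 gene that are neighbours in cluster 3. Fold enrichments are those that the authors' peak caller gave, each relative to the background used for that library. The best p130 summit of H4c1 reached a fold of 39.8, 22.4 and 24.5 in p130-KO replicates 1, 2 and 3. It reached 18.1, 13.8 and 21.0 in p130-WT replicates 1, 2 and 3. All 3 KO values were above the 3 WT values. Ranked by p among all peaks of its library, this summit was number 2, 1 and 1 in p130-KO and 2, 6 and 2 in p130-WT. The fragments under it numbered 107, 69 and 70 in p130-KO and 82, 58 and 97 in p130-WT, on which scale the groups overlap. These p130 summits lay 183, 201 and 194 bp before the H4c1 start in KO and 222, 215 and 200 bp before it in WT. The E2F words printed above lie 64 to 199 bp before the start.

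LIN54 marked the same stretch. The best LIN54 summit of H4c1 had a fold of 14.6 and 10.9 in LIN54-KO replicates 1 and 2, and of 5.88, 4.60 and 2.85 in LIN54-WT replicates 1, 2 and 3. Both KO values were above the 3 WT values, and WT replicate 3 (q = 0.283) missed q 0.01. STAG2 peaks at H4c1 were weak by comparison. No peak was listed in STAG2-KO replicate 1, replicate 2 had a fold of 2.53, and STAG2-WT replicates 1 and 2 had 3.68 and 2.63. The STAG2 peak with q up to 0.01 in WT replicate 1 (q = 0.00194) lay 569 bp past the start and not between the genes. H3c1 and H4c1 had the same best summit in 10 libraries, all at q 0.01, and each had a peak at q 0.01 in 11 of 15. Folds were not tested between genotypes, since each is relative to the background used for its own library. Over the distinct best summits of histone genes, the median fold was 2.37 and 2.92 in STAG2-KO and 4.74 and 3.82 in STAG2-WT libraries. It was 4.70 and 4.03 in LIN54-KO and 3.65, 4.10 and 2.87 in LIN54-WT libraries. For p130 it was 3.25, 2.59 and 2.55 in KO and 2.66, 3.25 and 3.06 in WT libraries. The part of these library-wide levels in the differences at single genes was not tested.

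H2bc14 in cluster 2 was the p130 site next in rank in WT. Its best p130 summit had a fold of 5.80, 2.72 and 3.37 in p130-KO replicates 1, 2 and 3, and of 8.94, 5.65 and 7.15 in p130-WT replicates 1, 2 and 3. KO replicates 2 and 3 were below all WT values, and KO replicate 1 was just above WT replicate 2, so that the groups overlapped. LIN54 had a fold of 7.07 and 5.18 there in LIN54-KO replicates 1 and 2, and of 9.02, 5.63 and 5.62 in LIN54-WT replicates 1, 2 and 3. The LIN54 groups overlapped. With STAG2, replicate 1 of KO had no peak and replicate 2 a fold of 2.11, against 7.18 and 5.01 in STAG2-WT replicates 1 and 2. In p130 libraries the summits of H2bc14 lay 88 to 107 bp before the start. Both its CHR (first base 101 bp before the start) and a CCAAT box (81 bp) lie near them.

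Another shared promoter, that of H2ac22 and H2bc22 in cluster 2, had a peak at q 0.01 in 11 of 15 libraries. Its folds at H2ac22 were 3.42, 2.49 and 1.99 in p130-KO replicates 1, 2 and 3, and 4.01, 4.90 and 6.24 in p130-WT replicates 1, 2 and 3. LIN54 gave 3.99 and 5.58 in LIN54-KO replicates 1 and 2, and 3.73, 6.29 and 6.79 in LIN54-WT replicates 1, 2 and 3. For STAG2 the values were 2.12 and 1.98 in STAG2-KO replicates 1 and 2, and 5.31 and 4.32 in STAG2-WT replicates 1 and 2. KO lay below WT for p130 and STAG2 and overlapped with it for LIN54. In p130-KO replicate 2 and STAG2-KO replicate 1 the best summit of H2ac22 lay at the other end of the gene. H2ac11 and H2bc11, at the far end of cluster 2, had a peak at q 0.01 in 10 libraries from a summit they share. H2ac11 had a fold of 2.81, 4.17 and 3.19 in p130-KO replicates 1, 2 and 3, and of 2.91, 7.90 and 7.36 in p130-WT replicates 1, 2 and 3, so that the groups overlapped.

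Other members are named for their rank with 1 antibody, although some also had peaks of the others. H4c14, the H4 gene of cluster 1, was the best ranked histone gene for STAG2 in both genotypes. Its STAG2 folds were 4.30 and 5.66 in STAG2-KO replicates 1 and 2, and 8.68 and 7.16 in STAG2-WT replicates 1 and 2, with no overlap. The median STAG2 folds of histone genes, given above, had the same order. H4c14 is named here for its rank. It was the only histone gene with a STAG2 peak at q 0.01 in all 4 libraries (1.67% of all genes). H4c14 also had a LIN54 peak at q 0.01 in 2 of 2 KO and 3 of 3 WT libraries, with mean folds of 8.26 and 5.46. Its p130 peaks were listed in 2 of 3 KO and 3 of 3 WT libraries, with q up to 0.01 in 1 WT library. H3c7 had the best mean rank for LIN54 in WT, with folds of 11.1 and 10.4 in LIN54-KO replicates 1 and 2 and of 8.76, 7.82 and 6.81 in LIN54-WT replicates 1, 2 and 3. Its KO values were the higher ones, whereas p130 peaks were listed at H3c7 in 1 of 3 KO and 1 of 3 WT libraries, none at q 0.01. H2bc3 had LIN54 folds of 11.5 and 11.1 in LIN54-KO and of 9.18, 5.95 and 5.73 in LIN54-WT replicates 1, 2 and 3, again without overlap. It also had a p130 peak in 3 of 3 KO and 3 of 3 WT libraries, and a STAG2 peak at q 0.01 in 2 of 2 WT libraries. The pair H2ac6 and H2bc4 had a peak at q 0.01 in 8 libraries, all of them STAG2 or LIN54 libraries. No p130 peak was listed at H2ac6 in KO, and 2 of 3 WT libraries had one, with folds of 2.50 and 2.70.

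**Figure D3:**
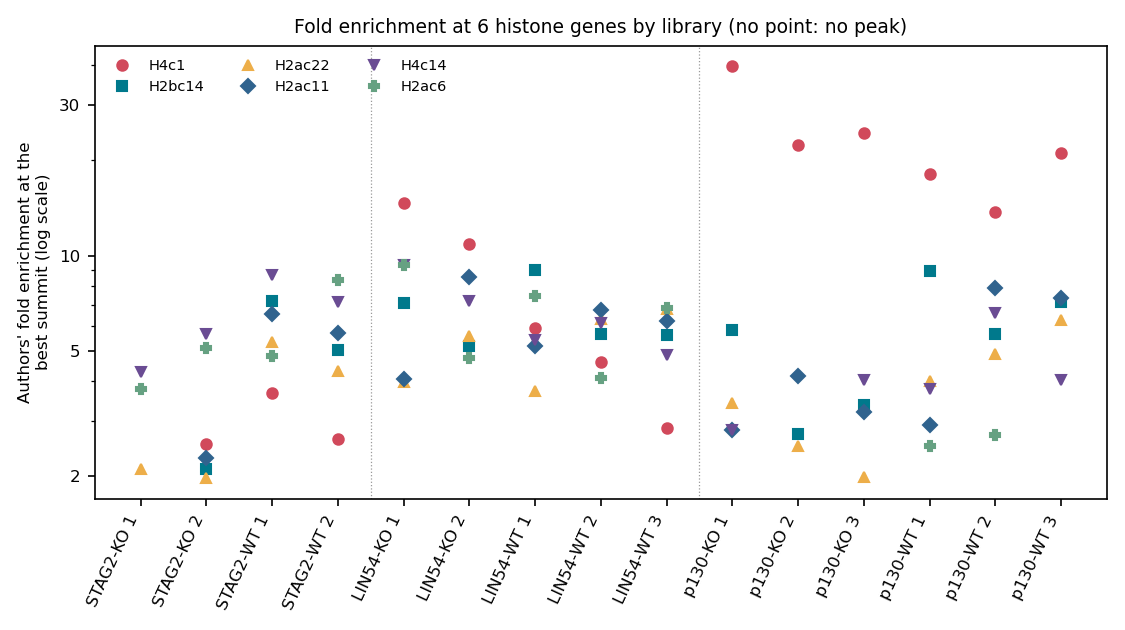
The authors' fold enrichment at the best summit of 6 histone genes, on a log axis, by library (replicate number after the group). H4c1 stands above the other 5 genes in all 6 p130 libraries, at 13.8 to 39.8, and H4c14 is the highest of the 6 in both STAG2-KO libraries.

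The remaining members ranged widely. H2bc15, H2ac22 and H3c1 had a peak in all 15 libraries (3 of 57, 5.26%, beside 1.92% of all genes), and 32 of 57 had one in at least 10 libraries (26.5% of all genes). At q 0.01 no histone gene was marked in every library (0.142% of all genes), and 12 of 57 were marked in none (58.7% of all genes). A p130 peak at q 0.01 was found in at least 1 library at 16 of 57 genes (4.57% of all genes), and 15 of 57 had such a peak of each antibody (3.87% of all genes). The 2 testis histone genes were among the least marked, with a peak of H2bc1 in 5 and of H2ac1 in 4 libraries, none at q 0.01.

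**Figure D4:**
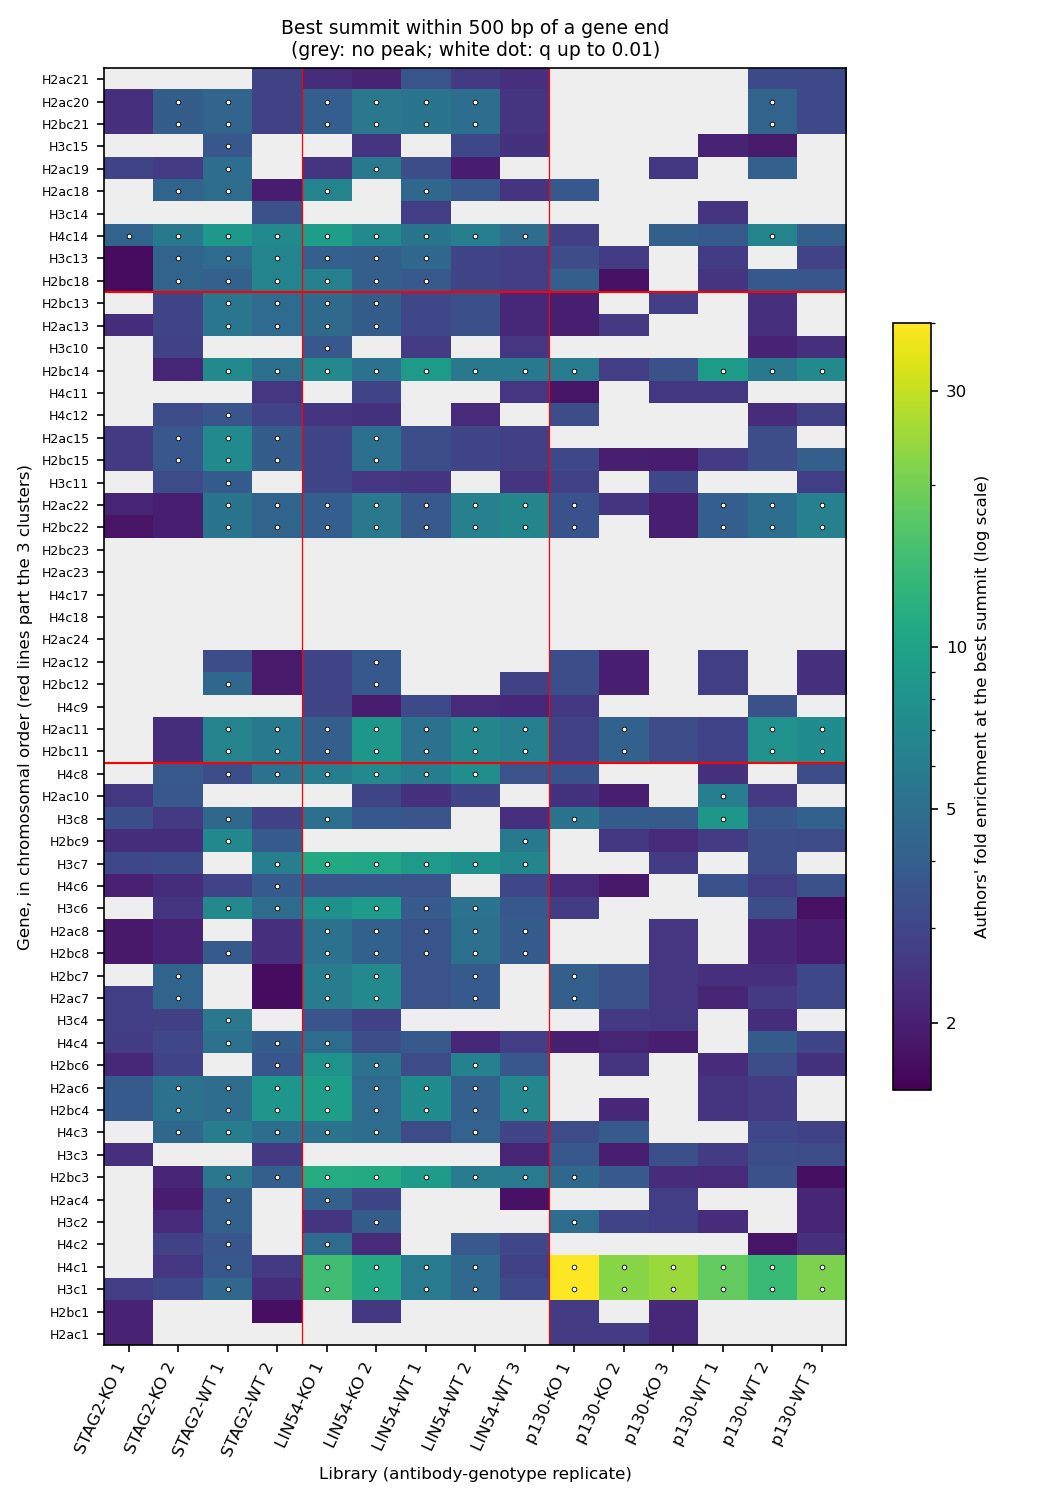
Fold enrichment, as the authors' peak caller gave it, at the best summit of each of the 57 histone genes (vertical, in chromosomal order) in the 15 libraries (horizontal), on a log colour scale. Grey means no peak, white dots mark q up to 0.01 and red lines part clusters and antibodies. H4c1 and H3c1 stand out in the p130 columns, and 5 neighbouring genes of cluster 2 are grey throughout.

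No summit in any library fell at 5 consecutive members of cluster 2: H2bc23, H2ac23, H4c17, H4c18 and H2ac24 (8.77% of members, beside 6.57% of all genes). From the first to the last of them (chr13:21806412-21833475), with the windows around them, 20 summits were listed over all 15 libraries, none at q 0.01. That is 0.713 summits per kb, against 2.76 per kb in the rest of the cluster. The promoters of these genes were near copies of other promoters. Of the 300 bases from 250 before to 50 after the start, H2bc23 shared a run of 300 with a gene the table calls H4bc24, H4c17 and H4c18 shared 285 with each other, H2ac23 shared 267 with H4bc24 and H2ac24 shared 233 with H2bc23. H4bc24 (chr13:21833743-21837530) lies next to H2ac24. Its symbol does not match the rule and leaves its histone class unclear, so it was not counted as a member. Among the 47 other members with a promoter in the table the longest shared run was 231 bases, between H3c14 and H3c15, which had a peak in 3 and 6 libraries. H2ac18 and H2ac19 shared 219 and had one in 8 and 9 libraries. How reads from such copies were placed is not given in the sources used here, and the part of the copies in the missing peaks was not tested.

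Many of these genes face each other. Among the 52 members with an annotated start, there were 9 divergent pairs of an H2ac and an H2bc gene with starts 164 to 281 bp apart (median 180 bp). Over all libraries, both genes of a pair were occupied 82 times, and in 78 of these (95.1%) they had the same best summit, while 1 gene alone was occupied 15 times. At q 0.01 both were occupied 40 times, each time with the same best summit, and 1 gene alone 2 times. A peak of such a pair therefore cannot be given to one of its genes, and STAG2, LIN54 or p130 at H2ac11 is the same datum as at H2bc11. In all, 30 members shared a best summit with a neighbour in at least 1 library. H2bc21 and H2bc4 have no annotated start and are not among these pairs. They shared a best summit with H2ac20 and H2ac6, respectively, in 11 libraries each.

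Summits lay just before the start. For the 52 members with an annotated start, the median position of the best summits was 94.5 bp upstream, and at q 0.01 it was 115 bp upstream. Summits were counted here per gene and library, so a summit shared by neighbours counts for each of them. At q 0.01, all 32 p130 summits lay upstream, between 222 and 53 bp before the start. LIN54 had 92 of 97 upstream (94.8%), with a median 117 bp before the start. STAG2 had 44 of 61 upstream (72.1%), with a median 100 bp before the start. By class, 95.3% of H2ac and 94.5% of H2bc summits were upstream, against 82.6% of H3c and 63.3% of H4c summits. A summit between the starts of a divergent pair is upstream of both its genes, and these pairs join an H2ac and an H2bc gene.

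**Figure D5:**
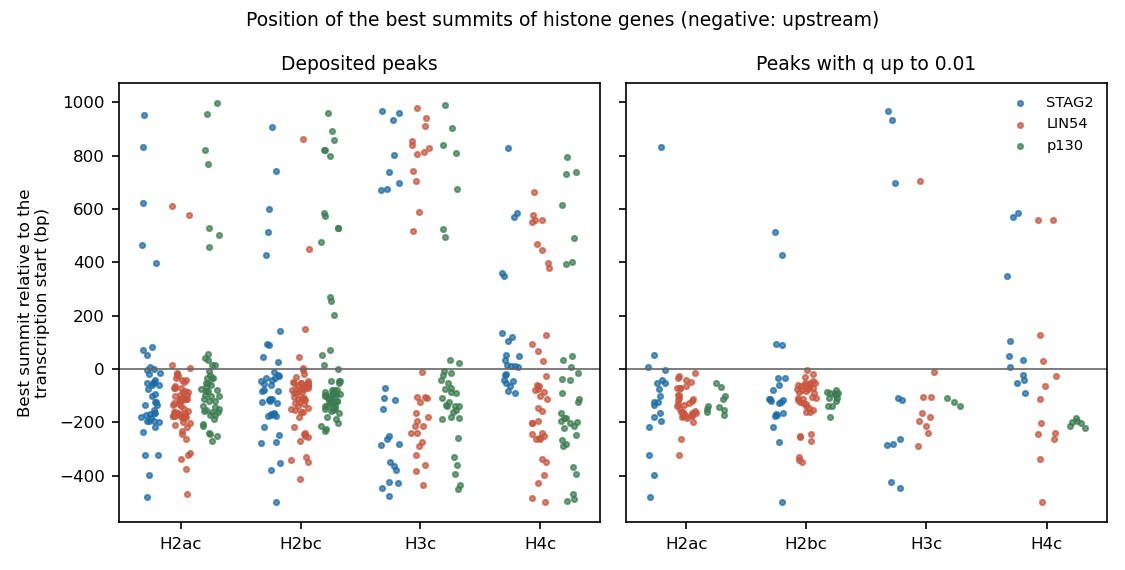
Distance of the best summits from the transcription start, in bp, for 52 histone genes, by class and antibody (2 summits more than 1000 bp past the start are not drawn). A summit shared by neighbours is drawn for each gene. At q 0.01 (right), all p130 summits lie between 222 and 53 bp upstream, whereas some STAG2 summits lie past the start.

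The promoters differed by class in the words they hold. In the 300 bases around the start, searched on both strands, CCAAT was found at all 17 H2ac, 14 H2bc and 10 H3c promoters and at 3 of 11 H4c promoters, beside 39.0% of 17492 promoters of all genes. The octamer ATTTGCAT was found at 6 of 17 H2ac and 6 of 14 H2bc promoters and at none of the H3c and H4c promoters (1.71% of all). Divergent partners can read the same place, and the 12 promoters with an octamer held 9 distinct places. TATAAA occurred at 57.7% of the histone promoters (13.3% of all). A CHR (TTTGAA or TTCGAA) occurred at 11 of 17 H2ac, 11 of 14 H2bc, 2 of 10 H3c and 1 of 11 H4c promoters (18.2% of all). These 25 promoters held 20 distinct places. An E2F word (TTTGGCGC, TTTGCCGC, TTTCGCGC or TTTCCCGC) occurred at 10 of 52 histone promoters, 19.2%, beside 2.92% of all promoters. No word searched lies within another. The 4 copies at H4c1 were the most of any promoter in the table, ahead of Mcm6, Srsf10 and Mycn with 3 each, which are named here after their counts were seen.

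Of the 13 histone genes with both a promoter in the table and a p130 peak at q 0.01, 8 had an E2F word, at 10 places in all. H4c1 alone held 4 of these places. The other genes were H2ac10 and the divergent pairs H2ac22 and H2bc22, H2ac11 and H2bc11, and H2ac7 and H2bc7. Among the 39 members without such a peak, 2 had a word, at 1 shared place. In other genes, 11.4% of 837 promoters with a p130 peak at q 0.01 and 2.44% of 16603 without one had an E2F word. A CHR was found at 9 of 13 and 16 of 39 histone genes with and without such a peak. A match of letters is a description of these windows and not a bound site, and divergent partners share theirs.

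Between genotypes, the lists moved in different directions for different antibodies. With STAG2, 61.4% ± 17.4 of histone genes had a peak in KO and 69.3% ± 3.72 in WT libraries (SD, n = 2 each), a difference of -7.89 percentage points beside -9.41 for all genes. Without STAG2-KO replicate 1 the difference was 4.39. LIN54 marked 78.9% ± 2.48 in KO (SD, n = 2) and 68.4% ± 3.51 in WT libraries (SD, n = 3), a difference of 10.5 beside 1.25 for all genes. p130 marked 52.0% ± 6.64 in KO and 61.4% ± 9.77 in WT libraries (SD, n = 3 each), a difference of -9.36 beside -8.65 for all genes. It was -14.6 within batch 3. At q 0.01 the differences were -38.6 for STAG2, 23.4 for LIN54 and -4.68 for p130, beside -17.2, 10.7 and -0.568 for all genes.

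With so few libraries per antibody, genes were also tested one by one over 14 libraries with a two-sided exact permutation test, in which genotypes were exchanged within antibody and batch. The statistic was the sum over antibodies and batches of the KO mean minus the WT mean, so opposite moves of different antibodies cancel. H2ac12, with STAG2 peaks in WT alone and LIN54 peaks in KO alone, had a sum of 0.167. The test therefore cannot show whether a gene differs between genotypes with a single antibody. With the deposited peaks no histone gene had p under 0.05, beside 1.35% of all genes with KO lower and 0.507% with KO higher, 406 genes in all. After Benjamini-Hochberg adjustment over all genes, no gene passed. The lowest exact permutation p among histone genes was 0.05, at H2ac21 and H2ac1, with an adjusted p of 1 for both. H2ac21 had a peak in none of the KO libraries of STAG2 and p130, in 1 of 2 STAG2-WT and 2 of 3 p130-WT libraries, and in all 5 LIN54 libraries. H2ac1 had one in all 3 p130-KO and none of the p130-WT libraries. Members with p under 0.05 numbered 2 without STAG2-WT replicate 1, and 1 each without STAG2-KO replicate 2, p130-KO replicate 1 or p130-WT replicate 2. At q 0.01 no histone gene had p under 0.05 either (8 genes of all), and the lowest exact permutation p was 0.0667.

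Few members had a peak in every library of 1 genotype and in none of the other. For STAG2 these were H2ac10 in KO alone (2.03% of all genes met the same rule) and H2ac12 and H2bc12 in WT alone (6.44%). For LIN54 they were H2ac12, H3c2 and H3c4 in KO alone (2.04%), and none in WT alone (1.38%). For p130 it was H2ac1 in KO alone (0.854%), and none in WT alone (2.42%). Leaving out a library loosens this rule, so a count can then only stay the same or rise. There were 13 STAG2 members in WT alone without STAG2-KO replicate 2, and 5 LIN54 members in KO alone without LIN54-WT replicate 3. Without p130-WT replicate 1 there were 5 p130 members in WT alone. The shares of all genes under these looser rules are not given here. At q 0.01, 11 members had a STAG2 peak in both WT and neither KO library (6.19% of all genes), among them H2ac11, H2bc11, H2ac13, H2bc13 and H2ac22, and none had the reverse (0.0320%). The 11 are 57.9% of the 19 members marked in both WT libraries (12.6% of all genes), and 49.2% of all genes so marked were also WT alone. H2ac13 and H2bc13, which share a promoter, had a LIN54 peak at q 0.01 in both KO and no WT library (3.99% of all genes), and no member had the reverse (0.0183%). The 2 are 7.69% of the 26 members marked in both LIN54-KO libraries (15.8% of all genes), beside 25.3% of all genes so marked. No member met either rule for p130 at q 0.01 (0.00457% of all genes in KO alone and 0.0228% in WT alone).

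Genes that supply histones or encode other histones were marked too. Of 20 genes that control or process histone mRNA or chaperone histones, a mean of 74.7% had a peak and 33.3% had one at q 0.01 (44.0% and 9.42% of all genes). They ranged widely, and Ccne2 and Nasp had no peak at q 0.01 in any library. Hinfp, a regulator of H4 transcription, had a peak at q 0.01 in 14 libraries, Casp8ap2, a component of the histone locus body, in 13, and Slbp, which binds the histone mRNA stem-loop, in 11. The 8 genes of variant core histones had means of 71.7% and 35.0%. Of these, H2ax, the variant phosphorylated at DNA breaks, had a peak at q 0.01 in 14 libraries, whereas H3f3b and Macroh2a2 had none. No gene of either list, and none of the 10 linker histone genes, had p under 0.05 in the permutation test.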

How the data were processed

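CUT&RUN peak lists of 15 libraries were used, and the 2 samples of the pMNase control were left out. The tools named in the submitters' processing notes are bcl2fastq, Bowtie2 and MACS2, and the build is mm10. Versions, settings, the placing of repeated reads and any control in the peak calls are not given in the sources used here. Each deposited peak has a fold (a ratio of signal at the summit to the background used by the peak caller), a −log10 p and a −log10 q, and these are the authors' values. The deposited score of a peak was not used. Folds served to describe peaks and were set side by side between genotypes without a test, and peaks were ranked by p within a library.

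Genes, coordinates and promoters came from RefSeq tables (GRCm38.p6), which matched all 57 symbols. A start site was found for 52 of the 57 (not for H2bc21, H2bc4, H3c1, H3c7 and H4c14). Summits within 500 bp of a gene end were assigned to it, and the best summit of a gene is that with the highest −log10 p. Fragment counts were recovered from fold and p, to within 0.002 on the log10 scale. The permutation test exchanged genotypes within antibody and batch (600 relabelings, smallest p 0.00167, which is the smallest they can give) and was tested on simulated data.

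The members, lists and tests were chosen with earlier results of these data known. Members were named by rank per antibody and genotype, by the number of libraries at q 0.01, by having no peak, by presence in 1 genotype alone and by lowest p. No per-sample columns were left aside. Alternatives were q 0.01, the 20000 best peaks, windows of 250 and 1000 bp, the start alone, other gaps between clusters, replicate numbers as a block, batches and leaving out a library at a time. Python 3.11.15, NumPy 2.4.6, pandas 2.3.3 and Matplotlib 3.10.9 were used.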

Additional observations from a re-analysis of the deposited data

Results flagged for a closer look

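At q 0.01, every STAG2-KO library was below every STAG2-WT library in the percent of histone genes with a peak, and every LIN54-KO library was above every LIN54-WT library. The differences were -38.6 percentage points for STAG2 and 23.4 for LIN54. The opposite directions were not tested against each other, and all genes moved the same way with both antibodies (-17.2 and 10.7 points). The number of peaks with q up to 0.01 moved with them: 1239 and 6777 in STAG2-KO against 25859 and 13346 in STAG2-WT libraries, and 15787 and 13044 in LIN54-KO against 4903, 6617 and 2166 in LIN54-WT libraries. Its part in the differences was not tested.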

How the results depend on the processing

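With q 0.01, the percent of histone genes with a peak was 12.3% in STAG2-KO and 50.9% in STAG2-WT, 56.1% in LIN54-KO and 32.7% in LIN54-WT, and 9.36% in p130-KO and 14.04% in p130-WT libraries. With the 20000 best peaks per library it was 21.1% in STAG2-KO and 48.2% in STAG2-WT, 59.6% in LIN54-KO and 43.3% in LIN54-WT, and 21.1% in p130-KO and 30.4% in p130-WT libraries. Windows of 250 bp gave 56.1% in STAG2-WT, 66.7% in LIN54-KO, 54.4% in LIN54-WT, 40.9% in p130-KO and 51.5% in p130-WT libraries. Windows of 1000 bp gave 80.7% in STAG2-WT, 86.0% in LIN54-KO, 73.7% in LIN54-WT and 63.2% in p130-KO libraries, and the start alone gave 60.6% in STAG2-WT, 73.1% in LIN54-KO and 59.0% in LIN54-WT libraries. KO minus WT was -38.6 (STAG2) and 23.4 (LIN54) points with q 0.01, -27.2 and 16.4 with the 20000 best peaks, and 14.1 for LIN54 with the start alone. With each library left out in turn, the percent was 49.1% to 73.7% in STAG2-KO and 66.7% to 71.9% in STAG2-WT, 77.2% to 80.7% in LIN54-KO and 66.7% to 70.2% in LIN54-WT, and 48.2% to 54.4% in p130-KO and 57.0% to 66.7% in p130-WT libraries. KO minus WT was then -20.2 to 4.39 for STAG2, 8.77 to 12.3 for LIN54 and -14.6 to -4.97 for p130.

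Genes marked in KO alone with STAG2 numbered 0 with q 0.01 and with the 20000 best peaks, 3 with windows of 250 bp and 2 to 5 with a library left out (2 without either STAG2-KO replicate, 3 without STAG2-WT replicate 1 and 5 without STAG2-WT replicate 2). In WT alone they numbered 11 with q 0.01, 8 with the 20000 best peaks and 2 to 13 with a library left out, 13 being without STAG2-KO replicate 2 and 5 without STAG2-WT replicate 1. In KO alone with LIN54 there were 0 with the 20000 best peaks, 5 with the start alone and 3 to 5 with a library left out (5 without LIN54-WT replicate 3), and in WT alone 0 to 1 (1 without LIN54-KO replicate 1). In KO alone with p130 there were 0 with q 0.01, the 20000 best peaks or the start alone and 1 to 2 with a library left out (2 without p130-KO replicate 2). In WT alone with p130 there were 0 to 5, with 5 without p130-WT replicate 1 (the library of batch 2), 2 without p130-WT replicate 3 and 1 without p130-KO replicate 2.

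The exact permutation test gave p under 0.05 at 8 genes with q 0.01, 252 with windows of 250 bp, 655 with antibody alone as strata and 340 to 458 with a library left out. Histone genes among them numbered 1 with antibody alone as strata, 0 to 2 with a library left out, and 0 with q 0.01, windows of 250 or 1000 bp or the block. With the replicate number as a block it gave 48 genes (128 relabelings). Deviations of same-numbered libraries from their group means correlated at -0.00380 to 0.0160, and those of differently numbered libraries at -0.0223 to 0.0123. Where a group has 2 libraries their deviations mirror each other, so the check cannot show whether the numbers pair the libraries. The causes of these changes were not tested. Gaps of 200 kb gave 4 clusters and gaps of 1000 kb gave 3. At q 0.01, 316 to 896 peaks remained in each p130 library.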
